A study of Mus musculus with 8 samples.

Results

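The 8 genes described here, Fstl5, Ncam2, Dscaml1, Sorl1, Prkd1, Rasgef1b, Tmtc1 and Onecut2, were picked out of 32285 genes measured in the mouse striatum because their level differed between inbred strains in another way in Drd1+ than in Drd2+ neurons. They were selected on the RNA counts of those 2 neuron clusters. The strain values there are therefore given as a description without a test, and tests are given for other clusters. Nuclear RNA came from the 10x Multiome assay, which reads RNA and open chromatin from the same nucleus.

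Single nuclei of the frozen striatum of 32 mice were profiled, 4 mice of each of 8 strains. The laboratory strains were C57BL/6, 129S1/SvImJ, A/J, NZO/HlLtJ and NOD/ShiLtJ, and the strains derived from wild mice were WSB/EiJ, CAST/EiJ and PWK/PhJ. All mice were 12 weeks old, none was treated, and no genotype other than the strain is given. Each of 4 batches mixed nuclei of 1 mouse per strain before loading, so a mouse is identified by its batch and by the strain called from its genetic variants. Sexes were balanced within a batch but are not given per mouse. Each inbred strain is 1 genetic background.

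Projection neurons make up most of the striatum and leave it by a direct and an indirect pathway. Direct-pathway neurons carry the dopamine receptor Drd1 with the peptides of Tac1 and Pdyn, and indirect-pathway neurons carry Drd2 with Adora2a and Penk. Dopamine acts on these receptors in opposite ways, so genes that set adhesion, signalling or transcription apart in the pathways are of interest for motor control. The 8 genes belong to different families. Fstl5 encodes a secreted follistatin-like glycoprotein, Ncam2 and Dscaml1 encode adhesion molecules of the immunoglobulin superfamily, and Sorl1 encodes a sorting receptor that steers the amyloid precursor protein. Prkd1 is a diacylglycerol-activated serine/threonine kinase, Rasgef1b a guanine nucleotide exchange factor for small GTPases, Tmtc1 a membrane protein of the endoplasmic reticulum that adds mannose to cadherins, and Onecut2 a homeodomain transcription factor.

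The authors' annotation held 55672 nuclei in 18 clusters, 62.3% of 89339 barcodes. Median depth per nucleus was 3232 to 4931 unique molecular identifiers (UMIs) per batch, with batch 3 the shallowest. Of 54141 barcode sequences, 1517 (2.80%) occurred in more than 1 batch. A library is the summed raw counts of the nuclei of 1 mouse in 1 cluster. Its total was 1710451 to 9416806 in Drd1+ neurons, 1251786 to 6803437 in Drd2+ neurons, 165465 to 1883033 in oligodendrocytes and 27325 to 365425 in macrophages. The labels of the Drd1+ and Drd2+ neurons hold against marker genes. The summed level of Drd2, Adora2a, Penk, Gpr6 and Sp9 was 1901 CPM (counts per 1000000 counts of the library) in Drd2+ neurons and 132 in Drd1+ neurons, where the strain means ran from 101 in 129S1/SvImJ to 219 in A/J. The summed level of Drd1, Pdyn, Tac1, Isl1 and Chrm4 was 641 CPM in Drd1+ and 66.2 in Drd2+ neurons, with strain means of 54.8 to 80.1 there. The fibroblast list (Dcn, Col1a1, Col1a2, Lum) reached 61.0 and 57.9 CPM in the Drd1+ and Drd2+ neurons of WSB/EiJ, against strain means as low as 1.24 and 1.14. The part of these signals in the values below was not tested.

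The genes lie on different chromosomes, except that Sorl1 and Dscaml1 share chromosome 9. On the build GRCm38 (RefSeq annotation GRCm38.p6), Fstl5 spans chr3:76074275-76710010, Ncam2 chr16:81200697-81624290, Dscaml1 chr9:45427433-45753713, Sorl1 chr9:41964709-42124297, Prkd1 chr12:50341226-50649271, Rasgef1b chr5:99217420-99252927 and Tmtc1 chr6:148232430-148444770. Fstl5 is among the longest genes of the mouse, longer than 99.3% of protein-coding genes, and Rasgef1b, at 35.5 kb, is longer than 69.9%. Promoter windows of 250 bases were found in the RefSeq table for 6 of the 8 genes. The windows that end at the annotated start of Ncam2, Sorl1 and Rasgef1b are shown because they lie wholly outside the annotated gene, next to the start of transcription. They are the reference sequence, not that of each strain. Capitals mark a GC box (GGGCGG, either strand) or a CCAAT box (CCAAT, either strand).
Ncam2, chr16:81200447-81200696, plus strand: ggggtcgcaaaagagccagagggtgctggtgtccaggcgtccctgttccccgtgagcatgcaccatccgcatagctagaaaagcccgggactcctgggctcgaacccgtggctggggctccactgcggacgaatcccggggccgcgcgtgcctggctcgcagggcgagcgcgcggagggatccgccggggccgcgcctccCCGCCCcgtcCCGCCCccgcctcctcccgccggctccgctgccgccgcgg
Sorl1, chr9:42124298-42124547, minus strand: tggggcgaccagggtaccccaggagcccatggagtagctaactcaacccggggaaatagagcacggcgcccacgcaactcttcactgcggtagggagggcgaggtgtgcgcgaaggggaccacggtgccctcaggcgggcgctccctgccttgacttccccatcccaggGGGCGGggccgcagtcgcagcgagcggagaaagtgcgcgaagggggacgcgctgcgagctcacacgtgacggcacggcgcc
Rasgef1b, chr5:99252928-99253177, minus strand: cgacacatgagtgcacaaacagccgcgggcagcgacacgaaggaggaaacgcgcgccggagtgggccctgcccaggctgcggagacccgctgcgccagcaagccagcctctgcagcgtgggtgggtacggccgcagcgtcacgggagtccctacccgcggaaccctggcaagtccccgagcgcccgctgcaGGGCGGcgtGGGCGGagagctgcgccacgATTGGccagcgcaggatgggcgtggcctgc
All 3 windows held at least 1 GC box, as did 32.7% of all 32851 windows in the table, and the CCAAT box of Rasgef1b occurs in 33.8% of them. Their GC content was 75.2%, 69.6% and 72.4%, against a median of 52.4%. A peak of the deposited open-chromatin index overlapped the windows of Ncam2 and Sorl1 and none overlapped that of Rasgef1b; 51.7% of all windows had such an overlap. These matches describe the letters only.

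Across the 18 clusters the 8 genes were highest in different cell types. Levels in this comparison are CPM of the library total without further scaling, as mean ± SD over the mice with at least 10 nuclei. Fstl5 was highest in Sst+ interneurons, where 85.5% of nuclei held a UMI and the mean over 2 mice was 865 CPM, and next in Nxph1+ interneurons at 335 ± 115 (n = 32). Drd1+ neurons followed at 177 ± 54.1, Slc17a7+ neurons at 117 ± 56.9 (n = 20) and Drd2+ neurons at 114 ± 64.5, and macrophages (4.99 ± 7.07) and oligodendrocytes (4.20 ± 3.02) were lowest. In the order from Nxph1+ interneurons down to ependyma each neighbour overlapped the next within mean ± SD.

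Ncam2 was highest in the cluster annotated Polydendrocyte/Oligodendrocyte at 1889.5 ± 739 CPM (n = 27) and in oligodendrocytes at 1481 ± 386 (n = 32), followed by Slc17a7+ neurons at 1196 ± 383 (n = 20) and Drd1+ neurons at 1160.1 ± 292. It was lowest in macrophages at 56.9 ± 49.0. Dscaml1 had its highest level, 865 ± 215 CPM (n = 26), in the cluster that the authors named Unknown, where the neuroblast and division markers Dcx, Sox11, Top2a and Mki67 were each at their highest of all clusters. It followed at 671 ± 338 in oligodendrocytes and was 162 ± 25.0 in Drd2+ and 101 ± 30.5 in Drd1+ neurons. Sorl1 was highest in ependyma (209 ± 60.3, n = 12), the second Drd1+ cluster (202 ± 52.8), the second Slc17a7+ cluster (160.7 ± 44.1, n = 16) and astrocytes (160.2 ± 32.2), with neighbours overlapping.

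Prkd1 was highest in astrocytes at 510.5 ± 91.5 CPM, then Drd2+ neurons at 410.4 ± 93.8 and the second Drd1+ cluster at 335 ± 146. Each of these overlapped the next, and Drd1+ neurons held 158 ± 73.3. Rasgef1b was highest in Drd1+ neurons (469 ± 64.3), Slc17a7+ neurons (349 ± 120.5, n = 20) and Drd2+ neurons (340.4 ± 68.3). It was near 20 in oligodendrocytes (22.3 ± 8.13), macrophages (19.6 ± 14.8) and astrocytes (19.6 ± 13.6), but 253 ± 81.1 in the cluster Polydendrocyte/Oligodendrocyte (n = 27). Tmtc1 was similar in Drd2+ (267 ± 62.1) and Drd1+ neurons (251 ± 27.5), whereas the small clusters Unknown_2 and fibroblasts had 569 and 399 CPM over 2 mice each. Onecut2 was highest in Drd1+ neurons at 138 ± 30.4. The cluster Polydendrocyte/Oligodendrocyte was next at 57.4 ± 92.3 (n = 27), a spread that overlaps, then mural cells at 55.7 ± 50.4 (n = 20). Drd2+ neurons followed at 47.5 ± 18.6, and the Drd1+ and Drd2+ ranges of mean ± SD did not overlap. In mural cells the 10 Drd1+ and Drd2+ neuron markers summed to 1060 CPM, 84.9% of their level in projection neurons. The part of RNA from projection neurons in the mural cell values was not tested.

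**Figure D1:**
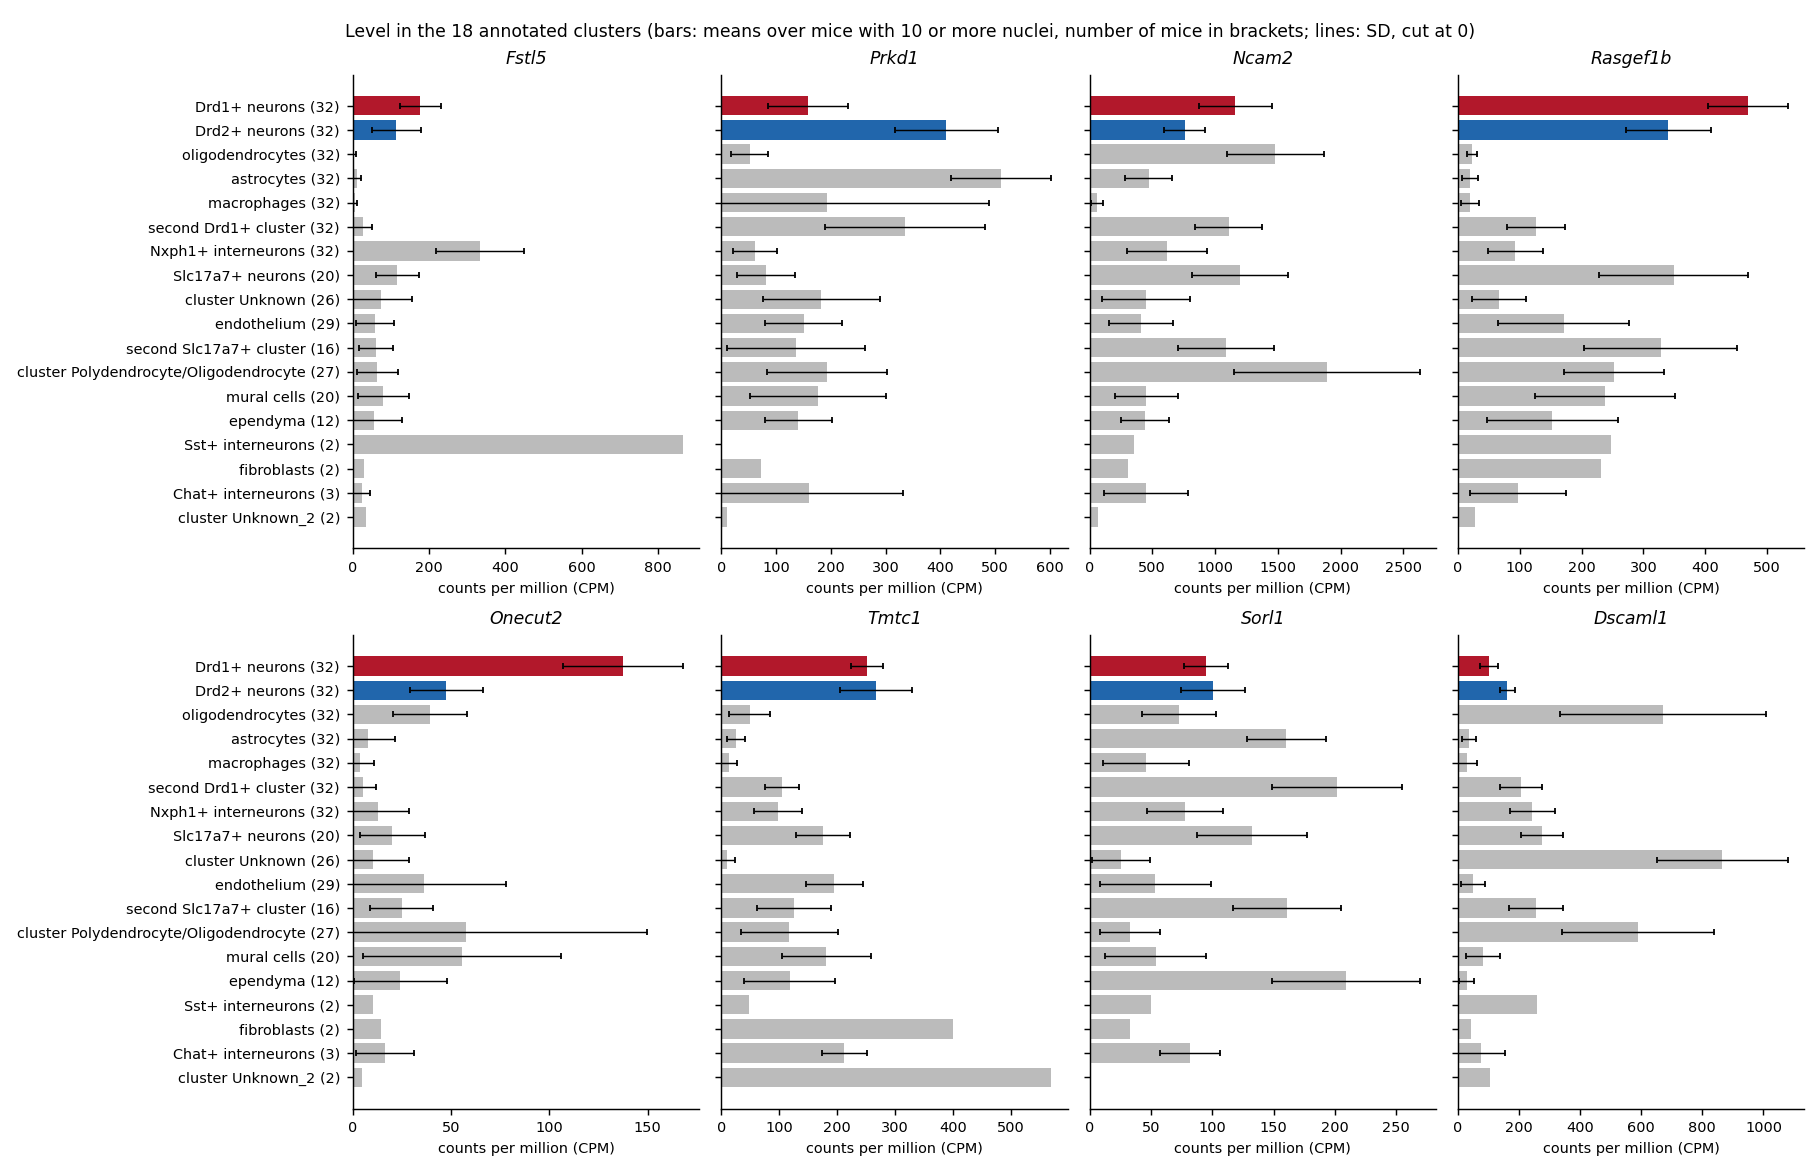
Mean level of each gene in the 18 annotated clusters in CPM; bars are means over mice with 10 or more nuclei, lines are SD, cut at 0, and the number of mice stands in brackets. Drd1+ neurons (red; Drd2+ neurons are blue) lead for Rasgef1b and Onecut2, astrocytes lead for Prkd1 at 510.5, and clusters with 2 mice have no SD.

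The mean difference between the pathways over the 8 strains comes from the same libraries that chose the genes, so it too is given as a description. Of 13791 genes, 29.6% were called between Drd2+ and Drd1+ neurons (edgeR quasi-likelihood test, mouse as a block, Benjamini-Hochberg adjustment), 14.2% higher in Drd2+ neurons and 15.4% lower. All 8 genes were among them (not Tmtc1 or Sorl1 without the mouse block, nor Sorl1 without batch 1), and nothing is read from that count. Prkd1 was 2.86-fold higher in Drd2+ neurons (log2 difference 1.52 ± 0.0267 SE) and Dscaml1 1.68-fold higher (0.75 ± 0.0231). Onecut2 was 3.04-fold lower (log2 -1.60), Fstl5 1.76-fold lower (-0.82), Ncam2 1.50-fold lower (-0.58) and Rasgef1b 1.38-fold lower (-0.46). Tmtc1 and Sorl1 differed little on average, by log2 0.08 and 0.09. Without the mouse block these 2 differences were again 0.08 and 0.09, and without batch 1 that of Sorl1 was 0.06.

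Fstl5 had the widest strain spread of the Drd2+ to Drd1+ ratio. In PWK/PhJ the 4 mice, in batch order, had 167, 127, 136 and 127 CPM in Drd1+ neurons and 222, 181, 193 and 174 CPM in Drd2+ neurons. In C57BL/6 they had 192, 226, 153 and 173 CPM in Drd1+ neurons but 44.2, 70.4, 40.3 and 62.3 in Drd2+ neurons. All PWK/PhJ mice were thus higher in Drd2+ neurons, and no other mouse of the study was. The log2 ratio was 0.47 ± 0.05 (SD, n = 4) in PWK/PhJ, -0.22 ± 0.19 in NZO/HlLtJ, -0.23 ± 0.12 in CAST/EiJ, -0.60 ± 0.21 in A/J, -1.15 ± 0.27 in 129S1/SvImJ, -1.36 ± 0.40 in NOD/ShiLtJ, -1.62 ± 0.15 in WSB/EiJ and -1.79 ± 0.28 in C57BL/6. NOD/ShiLtJ was low in both clusters, with 66.1 ± 7.70 CPM in Drd1+ and 25.7 ± 6.15 in Drd2+ neurons, below every mouse of the other strains in each. Between the highest and the lowest strain the level differed 3.48-fold in Drd1+ and 7.66-fold in Drd2+ neurons. The summed level of the 4 striosome markers in Drd2+ neurons was also highest in NZO/HlLtJ (132 CPM) and PWK/PhJ (121) and lowest in C57BL/6 (80.0). It was 96.8 CPM there in NOD/ShiLtJ and 101 in WSB/EiJ, the lowest and next lowest strains for Fstl5 in Drd2+ neurons (25.7 and 53.1 CPM). In Drd1+ neurons the sum was highest in NZO/HlLtJ (131 CPM) and PWK/PhJ (127) as well. NZO/HlLtJ was highest for Fstl5 there (230 CPM) and PWK/PhJ next lowest (139). The part of striosome neurons in the Fstl5 values was not tested. The span of 2.25 in the log2 ratio was larger than that of 99.7% of 13791 genes, whose median span was 0.47. The genes were chosen on strain differences of this kind, so nothing is read from that rank. The share of Drd2+ nuclei with a Fstl5 UMI ran from 10.8% in NOD/ShiLtJ to 56.7% in NZO/HlLtJ, and from 4.04% to 30.2% after thinning each nucleus to 2000 UMIs; in oligodendrocytes, which hold little Fstl5, it was 0.688% over all nuclei at a median of 1640 UMIs, against 5953 in Drd2+ neurons.

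Prkd1 was higher in Drd2+ neurons in each of the 32 mice, by a factor that changed with strain. The 4 NOD/ShiLtJ mice had 261, 249, 196 and 243 CPM in Drd1+ neurons and 382, 370.1, 352 and 388 in Drd2+ neurons. The 4 PWK/PhJ mice had 129.9, 105, 79.5 and 90.7 in Drd1+ neurons and 631, 526, 475 and 469 in Drd2+ neurons. The 2 strains exchanged their order between the clusters. Log2 ratios were 2.38 ± 0.13 (SD, n = 4) in PWK/PhJ, 2.28 ± 0.39 in CAST/EiJ, 1.75 ± 0.23 in WSB/EiJ, 1.73 ± 0.15 in A/J, 1.33 ± 0.05 in 129S1/SvImJ, 1.08 ± 0.10 in C57BL/6, 1.00 ± 0.14 in NZO/HlLtJ and 0.66 ± 0.13 in NOD/ShiLtJ. The 3 wild-derived strains were the 3 lowest in Drd1+ neurons, with CAST/EiJ at 58.1 ± 9.28 CPM below all other mice. The level differed 4.19-fold across strains in Drd1+ neurons and 1.85-fold in Drd2+ neurons.

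Onecut2 was lower in Drd2+ neurons in all strains, and most so in NZO/HlLtJ and WSB/EiJ. The NZO/HlLtJ mice had 15.1, 15.3, 19.9 and 9.46 CPM in Drd2+ neurons, below every other mouse, and 78.7, 95.7, 124 and 126 in Drd1+ neurons. WSB/EiJ had the highest mean in Drd1+ neurons (165 ± 21.9) and 30.7 ± 3.92 in Drd2+ neurons. Log2 ratios were -2.79 ± 0.58 (SD, n = 4) in NZO/HlLtJ and -2.40 ± 0.21 in WSB/EiJ, against -1.11 to -1.43 in the other strains, of which A/J had the highest. These values correspond to 6.45% of Drd2+ nuclei with a UMI in NZO/HlLtJ and 26.4% in A/J, or 2.75% and 10.6% after thinning. In oligodendrocytes the share without thinning was 5.78% at a median of 1640 UMIs and in the second Drd1+ cluster 1.59% at 4539. The median in Drd2+ neurons was 5953, and because of these unlike depths the shares of the clusters are not compared. The Drd2+ marker sum in Drd1+ neurons was also highest in A/J, and its part in the A/J ratio was not tested. Without batch 1 or batch 2, C57BL/6 had the highest ratio in place of A/J.

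Dscaml1 was higher in Drd2+ neurons in all 32 mice, and the ratio was greatest in NOD/ShiLtJ. The NOD/ShiLtJ mice had 44.9, 37.4, 54.2 and 51.8 CPM in Drd1+ neurons, lower than each mouse of the other strains, and 117, 137, 130.3 and 124.5 in Drd2+ neurons. The 129S1/SvImJ mice had 133, 182, 116 and 157 in Drd1+ and 160.5, 205, 143 and 217 in Drd2+ neurons. The log2 ratio was 1.43 ± 0.28 (SD, n = 4) in NOD/ShiLtJ, above all other mice, and 0.30 ± 0.12 in 129S1/SvImJ, with 0.39 to 0.94 in the remaining strains. Strain means differed 3.12-fold in Drd1+ neurons and 1.43-fold in Drd2+ neurons.

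Sorl1 departed from the other strains mainly in WSB/EiJ. Its WSB/EiJ mice had 111, 96.6, 119 and 91.6 CPM in Drd1+ neurons and 76.7, 65.3, 57.5 and 59.7 in Drd2+ neurons. The C57BL/6 mice had 84.2, 72.2, 90.2 and 71.0 in Drd1+ and 112, 119, 92.0 and 99.99 in Drd2+ neurons. The log2 ratio of WSB/EiJ, -0.68 ± 0.24 (SD, n = 4), lay below that of every other mouse. At the upper end C57BL/6 (0.41 ± 0.28), NZO/HlLtJ (0.41 ± 0.13), PWK/PhJ (0.36 ± 0.08) and 129S1/SvImJ (0.35 ± 0.14) did not differ beyond their spread. The ratio was above 0 in 18 of 32 mice.

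For Tmtc1, WSB/EiJ and PWK/PhJ stood apart in Drd2+ neurons. In Drd1+ neurons the strain means spanned 215 to 298 CPM, a 1.39-fold difference. In Drd2+ neurons WSB/EiJ mice had 181, 163, 144 and 164 CPM and PWK/PhJ mice 181, 191, 184 and 169, whereas C57BL/6 mice had 296, 294, 295 and 297 and the A/J mean was 366 ± 30.1. Log2 ratios were -0.39 ± 0.20 in WSB/EiJ and -0.34 ± 0.09 (SD, n = 4) in PWK/PhJ, 0.07 ± 0.07 in CAST/EiJ, and 0.20 to 0.30 in the other 5 strains, whose order changed with the scaling and with the batch left out.

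Ncam2 and Rasgef1b were lower in Drd2+ neurons in all 32 mice, and with Tmtc1 they had the 3 narrowest strain spreads of the ratio among the 8 genes. For Ncam2 the NOD/ShiLtJ mice had 1511, 1596, 1449 and 1589 CPM in Drd1+ neurons and 815, 991, 765 and 875 in Drd2+ neurons. WSB/EiJ mice had 1061, 968, 1145 and 1023 in Drd1+ neurons and 909, 839, 882 and 847 in Drd2+ neurons. The log2 ratio was -0.84 ± 0.10 in NOD/ShiLtJ, -0.81 ± 0.14 in PWK/PhJ, which was lowest without batch 4, and -0.27 ± 0.08 (SD, n = 4) in WSB/EiJ. For Rasgef1b the PWK/PhJ mice had 459, 447, 354 and 353 CPM in Drd1+ neurons and 211, 237, 169 and 214 in Drd2+ neurons, and no other strain came this low in Drd2+ neurons. Its log2 ratio was -0.96 ± 0.18 in PWK/PhJ, below all other mice, and -0.23 ± 0.04 (SD, n = 4) in A/J. NZO/HlLtJ, at -0.23 ± 0.11, took the upper end without batch 4 and after thinning to one total. The spans of 0.57 for Ncam2, 0.69 for Tmtc1 and 0.73 for Rasgef1b exceeded those of 60.1%, 69.9% and 72.6% of all genes. These percentages, and that of Fstl5, come from the values that chose the genes, so nothing is read from them. They also do not allow for the level of a gene. Fstl3, at 4.76 CPM in Drd1+ neurons, exceeded 92.3% without a called interaction of strain and cluster (edgeR adjusted p = 0.638). Fstl4, at 354 CPM there, exceeded 29.5% with a called one (edgeR adjusted p = 0.0047).

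**Figure D2:**
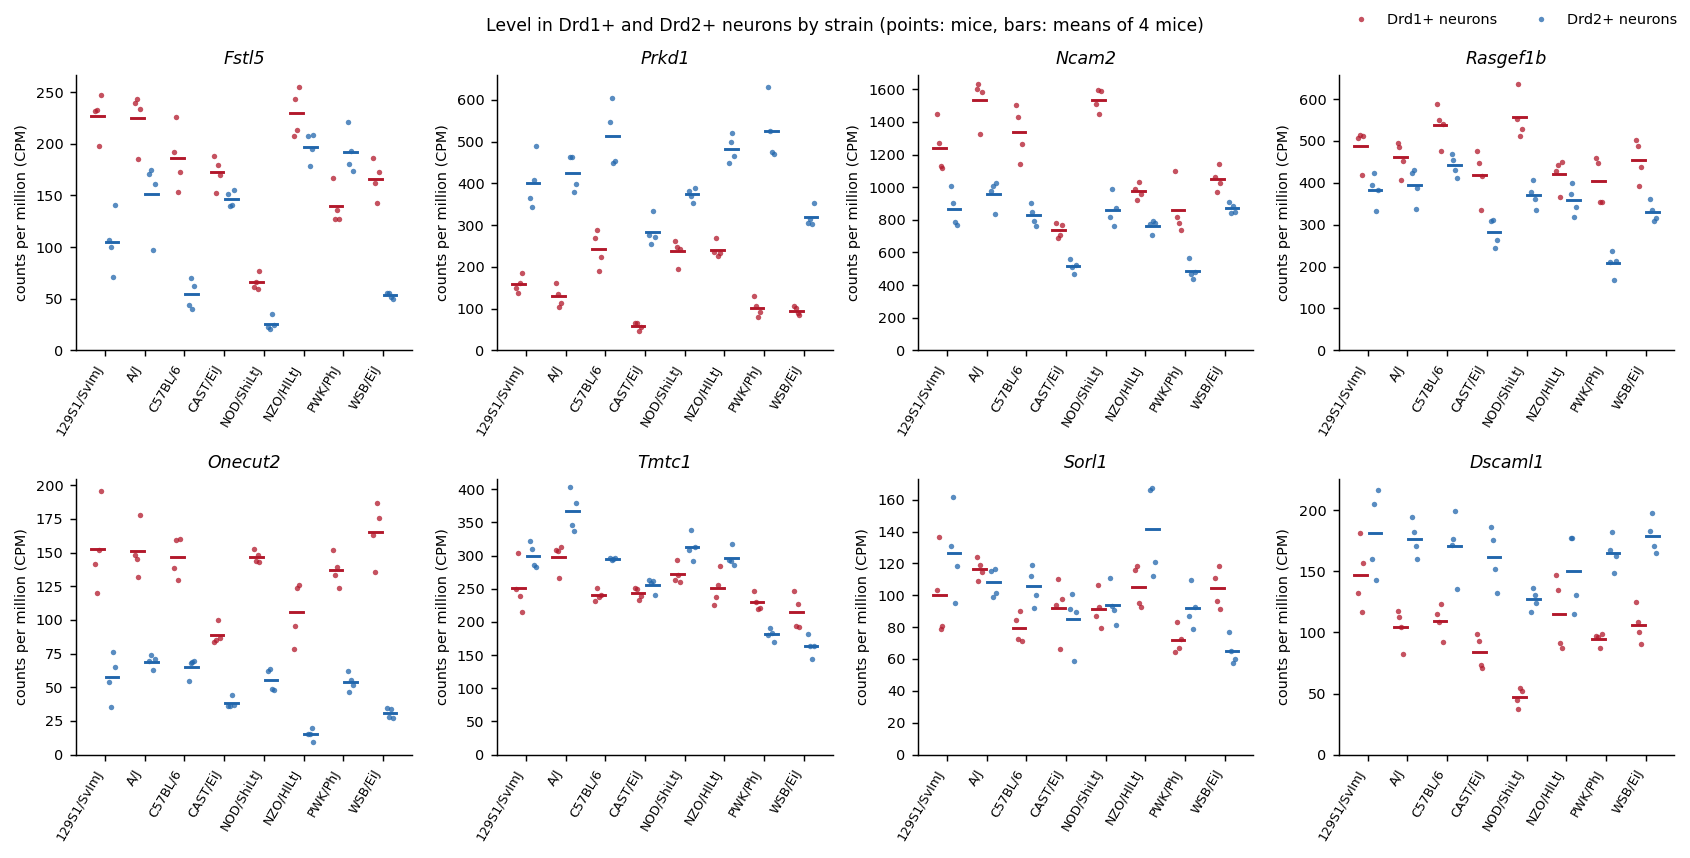
CPM of each gene in Drd1+ (red) and Drd2+ neurons (blue) for each of 8 strains; points are mice and bars are means of 4 mice. Fstl5 lies higher in blue than in red in PWK/PhJ, where the means are 192 and 139, and Dscaml1 is lowest in the Drd1+ neurons of NOD/ShiLtJ at 47.1.

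**Figure D3:**
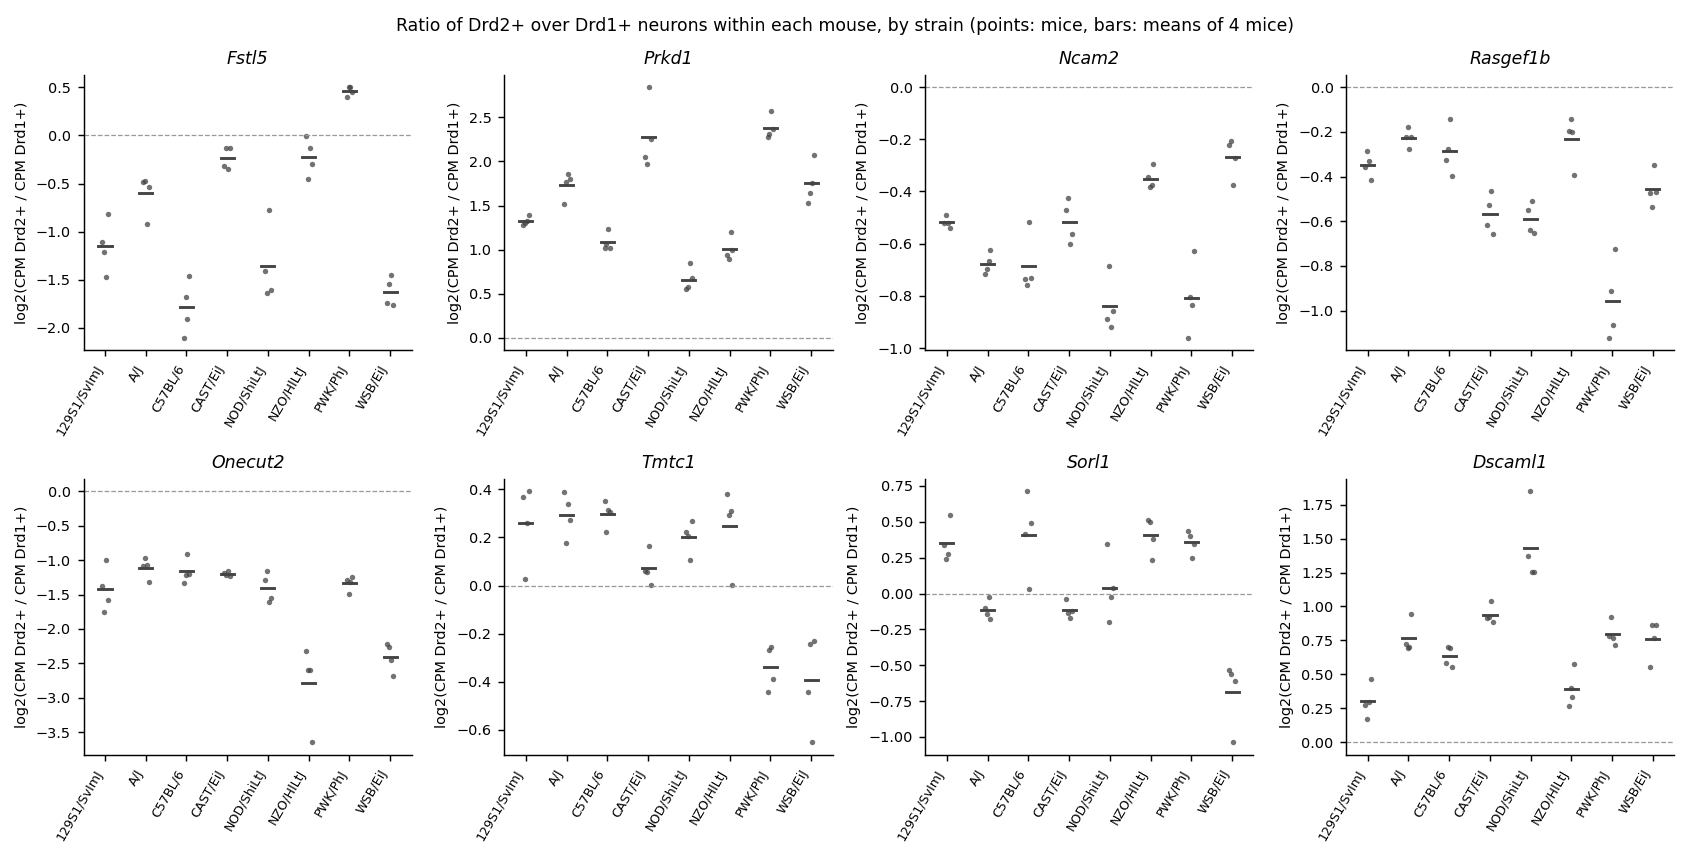
Log2 ratio of CPM in Drd2+ over Drd1+ neurons within each mouse, by strain; points are mice, bars are means of 4 mice, and the dashed line marks equal levels. The 4 PWK/PhJ mice lie above the line for Fstl5, all 32 mice lie above it for Prkd1 and Dscaml1, and all lie below it for Ncam2, Rasgef1b and Onecut2.

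The genes did not share 1 strain pattern. Over the 32 mice, Pearson correlations between their log2 ratios ran from -0.64 for Ncam2 with Onecut2 to 0.59 for Rasgef1b with Tmtc1; the ratios of a mouse share its libraries, so these are descriptions. Among 8789 other genes with at least 10 CPM in both clusters, the ratio most like that of Fstl5 was St6galnac5 (Pearson r of 0.74 over 32 mice), then Fam184b and Sgcd. Nearest to Prkd1 were Rbms3 (0.79), Gm10754 and Frmpd4. Nearest to Ncam2 were Frmd6 (0.68), Gm20754 and Rps6ka5, and nearest to Rasgef1b were Auts2 (0.79), Epha6 and Acvr1c. Onecut2 was followed by Cnep1r1 (0.62) and Olfm3, and Tmtc1 by Spock2 (0.74), Ccdc28a and Slc24a2. Sorl1 had Cntn3 (0.68), Nbea and Cntnap5c nearest, and Dscaml1 had Kcnip4 (0.68), Gm2164 and Lmo3.

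A second, smaller cluster of Drd1+ neurons, 1506 nuclei with their own markers Otof, Casz1, Pcdh8, Cacng5 and Tshz1, was not used to choose the genes, but the main Drd1+ cluster was, so the differences between them are a description. Of 12440 genes, 39.6% were called between them, all 8 genes among these (not Ncam2 once both clusters of a mouse were thinned to the same total), and nothing is read from that count. Prkd1, Sorl1 and Dscaml1 were higher by log2 1.01, 0.95 and 0.93, and 15.6% of all genes were called higher and 24% lower. Fstl5 (log2 -3.13), Rasgef1b (-2.06), Tmtc1 (-1.37) and Ncam2 (-0.17) were lower, and Onecut2 was near the limit of detection at 5.09 ± 6.94 CPM, against 138 in Drd1+ neurons. Onecut2 had 37 counts in this cluster over all mice and none in the 4 A/J mice. After thinning the difference of Ncam2 was -0.08.

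Strain effects were called in this second cluster for 5 of 6 genes, Fstl5 and Onecut2 aside, against 17.3% of 5544 genes. Prkd1 had 793, 533, 629 and 476 CPM in the C57BL/6 mice and 208, 88.4, 181 and 267 in the WSB/EiJ mice, a 3.27-fold difference of means (edgeR adjusted p = 1.09e-14). CAST/EiJ and WSB/EiJ were the lowest of the 8 strains here as in the main Drd1+ cluster. Dscaml1 was lowest in NOD/ShiLtJ, with 127, 93.1, 128.5 and 111 CPM against strain means of 205 to 322 elsewhere (edgeR adjusted p = 1.79e-05). Ncam2 ran from 900.4 ± 56.8 in PWK/PhJ to 1543 ± 285 in A/J (edgeR adjusted p = 6.32e-09) and Sorl1 from 147 ± 26.1 in NZO/HlLtJ to 305 ± 62.6 in A/J (edgeR adjusted p = 9.18e-05). Rasgef1b was 80.1 ± 21.8 in PWK/PhJ and 80.4 ± 29.6 in CAST/EiJ, the low end, and 192 ± 8.94 in A/J (edgeR adjusted p = 1.91e-05). Fstl5 was highest in CAST/EiJ (62.6 ± 40.3) and WSB/EiJ (62.4 ± 30.6), against 7.52 ± 10.1 in A/J. It reached the level asked by the filter on low counts in 4 libraries, all of those 2 strains. Here and below no strain test is given for a gene that reached this level neither in every strain nor in at least 50% of the libraries, a rule chosen after seeing the data. Tmtc1 did not pass (edgeR adjusted p = 0.372), and Onecut2 was too low to test. The summed Drd2+ neuron markers in this cluster ran from 333 CPM in NZO/HlLtJ to 452 in PWK/PhJ, against 1901 over all mice in Drd2+ neurons. The summed oligodendrocyte markers ran from 1298 CPM in NOD/ShiLtJ to 1662 in CAST/EiJ. Interneuron markers ran from 37.2 in C57BL/6 to 95.6 in CAST/EiJ. Mural and fibroblast markers were highest in WSB/EiJ (69.9 and 48.7), with lowest strain means of 12.3 and 2.37. The part of RNA from other cells in these strain values was not tested.

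In oligodendrocytes, the myelin-forming glia, 7 of 7 tested genes had a strain effect, where 34.8% of 9082 genes were called. Dscaml1 had the largest F statistic of the 7 genes. The NOD/ShiLtJ mice had 104.5, 102, 102 and 96.0 CPM and the A/J mice 249, 183, 216 and 169.9, while means of the other 6 strains ran from 651 ± 108 in NZO/HlLtJ to 1007 ± 140.2 in 129S1/SvImJ. NOD/ShiLtJ lay below all other mice, and the fold between the highest and the lowest mean was 9.96 (edgeR F = 180, adjusted p = 1.37e-42). A/J, low for Dscaml1 in oligodendrocytes, had 104 ± 15.3 CPM in Drd1+ neurons, inside the range of the other strains.

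Ncam2 in oligodendrocytes was lowest in PWK/PhJ, with 669, 656, 668 and 771 CPM, then WSB/EiJ at 1155 ± 199, and 1532 to 1814 in the other strains (edgeR adjusted p = 1.29e-26). Onecut2 was almost missing from PWK/PhJ oligodendrocytes, with 7.76, 4.54, 0 and 6.40 CPM from 12 counts, against strain means of 33.6 to 63.0 (edgeR adjusted p = 5.02e-12). In Drd1+ neurons the same PWK/PhJ mice had 137 ± 11.7 CPM of Onecut2, within the range of the other strains. For both genes the PWK/PhJ oligodendrocytes lay below those of every other mouse.

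Tmtc1 in oligodendrocytes was highest in the 3 wild-derived strains. WSB/EiJ mice had 107, 105, 76.5 and 129.8 CPM, PWK/PhJ mice 116, 84.0, 54.7 and 119.5, and CAST/EiJ mice 59.8, 77.7, 88.4 and 61.8. C57BL/6 mice had 13.6, 8.24, 18.9 and 17.9 (edgeR adjusted p = 3.38e-24). WSB/EiJ and PWK/PhJ, high here, were the 2 lowest strains for Tmtc1 in Drd2+ neurons. Prkd1 had 101, 93.6, 135 and 106 CPM in CAST/EiJ oligodendrocytes and 14.8, 19.8, 11.9 and 9.11 in those of 129S1/SvImJ (edgeR adjusted p = 1.72e-23), although CAST/EiJ was the lowest strain for Prkd1 in Drd1+ and in Drd2+ neurons. Sorl1 was 118, 128, 121 and 129.8 in NOD/ShiLtJ, above all others, and 29.9, 29.9, 15.6 and 19.4 in CAST/EiJ, below all others (edgeR adjusted p = 1.75e-17).

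The 5 Drd1+ and 5 Drd2+ markers together stood in oligodendrocytes at 31.1% of their level in projection neurons, and each list's strain means there differed by no more than 1.14-fold. The summed matrix markers ran from 68.8 CPM in PWK/PhJ to 160.1 in NZO/HlLtJ, and the summed interneuron markers from 145 in NZO/HlLtJ to 289 in CAST/EiJ. Rasgef1b stood at 5.62% of its level in projection neurons, and its strain term passed (edgeR adjusted p = 0.00644, and 0.074 without batch 4). Prkd1 stood at 18.9% and Tmtc1 at 17.3%, also below the share of the markers. The part of RNA from other cells in these 3, and in Ncam2, was not tested. Dscaml1 stood at 472%, Ncam2 at 147%, Sorl1 at 79.9% and Onecut2 at 42.2%. Fstl5, at 2.62%, was too low to test.

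In macrophages, which here carry the microglial markers Cx3cr1, C1qa, Csf1r, P2ry12 and Tmem119, 24.8% of 3858 genes had a called strain term. Prkd1 reached the level asked by the filter in 10 libraries, all of the 3 strains where it was high, so its levels are a description. The 4 PWK/PhJ mice had 950.0, 854, 765 and 775 CPM of Prkd1, the 129S1/SvImJ mice 969, 360.3, 740 and 1112, and the CAST/EiJ mice 94.8, 93.4, 413 and 169. Means of the other 5 strains were 9.005 to 18.7 CPM, from 0 to 53.7 in single mice. Every mouse of PWK/PhJ, 129S1/SvImJ and CAST/EiJ lay above every mouse of the other 5 strains. In astrocytes of the same mice Prkd1 was 502 to 601 CPM in all 8 strains and did not pass (edgeR adjusted p = 0.628). Of the astrocyte markers in macrophages, Aqp4 was 24.8 ± 13.3 CPM in 129S1/SvImJ, 13.5 ± 15.8 in PWK/PhJ and 16.1 ± 13.3 in CAST/EiJ. Means of the other 5 strains were 20.4 to 32.6. In the same order Gja1 was 37.0 ± 19.97, 44.2 ± 3.44 and 38.5 ± 30.1 CPM, within 31.0 to 76.7 of the other 5. Slc1a2 was 527 ± 204, 423 ± 230 and 373 ± 179 CPM, within 328 to 571. Slc1a3 was 4288 ± 744 in 129S1/SvImJ macrophages against 179 to 426 in all other strains, including 179 ± 78.6 in PWK/PhJ. The summed level of 3 endothelial markers in macrophages was 334 CPM in CAST/EiJ, 37.7 in NOD/ShiLtJ and 111 over all mice. That of the 4 striosome markers was 168 in 129S1/SvImJ and 35.97 in C57BL/6. The 5 oligodendrocyte markers summed to 4656 CPM in macrophages, with strain means of 4240 to 5148, and the 5 microglial markers to 5911. The part of these signals in the Prkd1 values was not tested. Sorl1 fell under the filter on low counts, with 179, 99.8, 149.9 and 173 CPM in PWK/PhJ against means of 26.5 to 62.7 in the other strains.

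**Figure D4:**
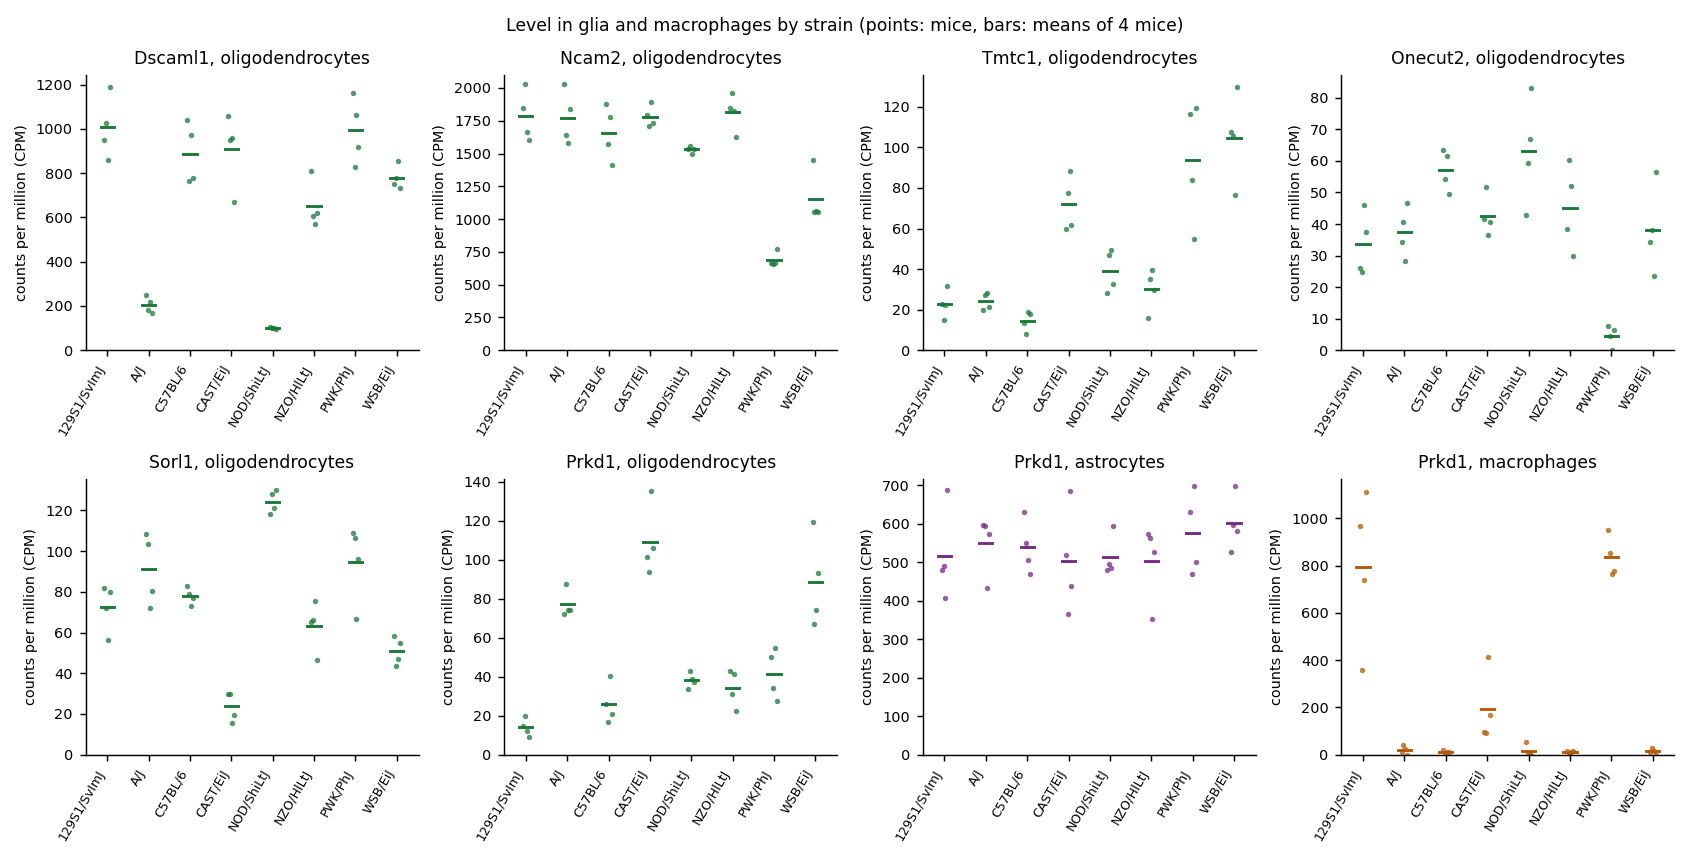
CPM by strain in oligodendrocytes for Dscaml1, Ncam2, Tmtc1, Onecut2, Sorl1 and Prkd1, and of Prkd1 in astrocytes and macrophages; points are mice, bars are means of 4 mice. Dscaml1 is lowest in NOD/ShiLtJ (101) and A/J (205), and Prkd1 in macrophages is at 836 in PWK/PhJ and 795 in 129S1/SvImJ, while its strain means in astrocytes lie between 502 and 601.

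Astrocytes gave a strain effect for 3 of 5 genes, where 21.5% of 8207 genes were called. Ncam2 was 259 ± 29.6 in CAST/EiJ and 279 ± 51.7 in PWK/PhJ, the 2 low strains also in Drd1+ and Drd2+ neurons, and 820 ± 218 in NZO/HlLtJ (edgeR adjusted p = 1.88e-06). Dscaml1 was lowest in NOD/ShiLtJ at 16.2 ± 13.7 and highest in CAST/EiJ at 73.2 ± 17.5 (edgeR adjusted p = 0.00054). Sorl1 ran from 126 ± 30.4 in C57BL/6 to 197 ± 23.9 in NZO/HlLtJ (edgeR adjusted p = 0.00563), and this call was lost without batch 1 or batch 2, with an edgeR adjusted p of up to 0.115. Fstl5 and Rasgef1b reached the level asked by the filter in 4 and 10 of 32 libraries, and no test is given. In astrocytes the 10 markers stood at 29.3% of their level in projection neurons, Dscaml1 at 25.8%, Tmtc1 at 9.70%, Fstl5 at 7.84% and Rasgef1b at 4.76%. The 5 oligodendrocyte markers summed to 3881 CPM in astrocytes, with strain means of 3596 to 4181, and to 21093 in oligodendrocytes. The summed level of 3 oligodendrocyte precursor markers in astrocytes ran from 11.3 CPM in CAST/EiJ to 65.1 in C57BL/6. That of the 4 neuroblast markers ran from 17.5 in NOD/ShiLtJ to 48.7 in C57BL/6. The part of RNA from other cells in the levels of these genes, Ncam2 and Sorl1 included, was not tested.

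The interaction of strain and cluster between astrocytes and oligodendrocytes tests whether strain effects differ between cell types outside the choice of the genes. It passed for all 5 genes with a strain test given in both clusters, against 10.9% of 10121 genes. Prkd1 (edgeR F = 26.8, adjusted p = 7.46e-20), Sorl1 (14.7, adjusted p = 5.48e-12), Ncam2 (14.5, adjusted p = 7.62e-12) and Tmtc1 (9.18, adjusted p = 5.01e-07) had the largest statistics. Tmtc1 was low in astrocytes, at 25.6 ± 15.4 CPM, and reached the level asked by the filter in 13 of 32 libraries there. Its strain term in astrocytes did not pass (edgeR adjusted p = 0.297). Dscaml1 passed at an edgeR adjusted p of 0.017, and this call was lost without batch 3 (edgeR adjusted p = 0.313). Fstl5, Rasgef1b and Onecut2 reached the level asked by the filter in 4, 10 and 1 of 32 astrocyte libraries, so no test is given. The part of RNA from oligodendrocytes in the astrocyte values was not tested.

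Smaller clusters held little that could be called. In Nxph1+ interneurons 0 of 6 tested genes had a strain effect at an adjusted p under 0.05, by edgeR and by DESeq2, where 1.53% of 3987 genes were called; none of the 6 had an unadjusted edgeR p under 0.05. In endothelium 0 of 4 tested genes passed in edgeR, where 3.23% of 4986 genes were called. Ncam2 alone had an unadjusted edgeR p under 0.05, and it passed in DESeq2 (adjusted p = 0.0422), with no filter (edgeR adjusted p = 0.000157) and without batch 2 (edgeR adjusted p = 0.0295). Dscaml1, for which no test is given there, had 0, 20.7, 0 and 11.5 CPM in the 4 NOD/ShiLtJ mice, 5 counts in all, and a WSB/EiJ mean of 101 ± 33.7 (SD, n = 3). In the cluster Polydendrocyte/Oligodendrocyte 0 of 4 passed in edgeR and 1 in DESeq2 (Dscaml1, DESeq2 adjusted p = 0.0288), where 1.24% of 2099 genes were called in edgeR. Dscaml1 alone had an unadjusted edgeR p under 0.05.

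Of 19 paralogs, 17 could be tested between the pathways, and Onecut1 and Onecut3 were too low. The interaction of strain with Drd1+ against Drd2+ neurons was called for 4 of the 17, against 4.58% of 13791 genes. These were Fstl4, a relative of Fstl5 (edgeR adjusted p = 0.0047), the sorting receptor gene Sorcs1 (edgeR adjusted p = 0.0151), the activin-binding follistatin Fst (edgeR adjusted p = 0.0196) and Tmtc2 (edgeR adjusted p = 0.0321). Their log2 ratios ran from -0.44 in NZO/HlLtJ to -0.12 in WSB/EiJ for Fstl4, from -0.35 in NOD/ShiLtJ to -0.02 in 129S1/SvImJ for Sorcs1, for Fst from -0.33 (NOD/ShiLtJ) up to 1.23 (PWK/PhJ), and from -0.43 in CAST/EiJ to 0.10 in C57BL/6 for Tmtc2. Each of the 4 calls was lost without the replicate block and without at least 1 batch: Fst without batch 2 or 3, Fstl4 without batch 1 or 4, Sorcs1 without batch 3, and Tmtc2 without any 1 batch. Fst and Tmtc2 also lost the call in DESeq2. With 1 batch left out, 1 to 3 paralogs were called. The strain term was called for 17 of 17 paralogs in Drd1+ neurons, where 61.7% of 13431 genes were called, and for 15 of 17 in Drd2+ neurons, where 55.9% of 12799 were; Dscam (edgeR adjusted p = 0.287) and Sorcs1 (edgeR adjusted p = 0.244) did not pass in the latter.

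Dscam, the closest relative of Dscaml1, differed between the pathways in the opposite direction. It was 9.98-fold lower in Drd2+ than in Drd1+ neurons on average (log2 -3.32 ± 0.0598 SE, edgeR adjusted p = 1.95e-89), whereas Dscaml1 was higher in Drd2+ neurons. The interaction of Dscam with strain did not pass (edgeR adjusted p = 0.15). Dscam stood at 54.2 CPM in Drd1+ and 5.25 in Drd2+ neurons, where the filter for the strain term asked for 4.12. This low level limits its fold, its interaction test and its strain term in Drd2+ neurons. Sorcs3 (log2 0.92) and Sorcs2 (0.51), relatives of Sorl1, were higher in Drd2+ neurons, and Sort1 (-0.17) and Sorcs1 (-0.15) lower. In all, 12 of the 17 paralogs differed between the pathways on average, where 29.6% of genes did.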

How the data were processed

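Nuclei of 32 mice were measured in 4 pooled batches with the 10x Multiome assay. Per the submitters' processing notes, reads were handled with bcl2fastq 2.20.0.422 and Cell Ranger ARC 2.0.0 on mm10/GRCm38. The authors deposited raw UMI counts per gene and barcode, and other values used are the deposited cell annotation (batch, strain call, cluster) and peak coordinates. Every annotated nucleus is a singlet in the deposited table by its genotype calls and by DoubletFinder, and no further doublet caller was run. Counts of the nuclei of 1 mouse in 1 cluster were summed where there were at least 10 nuclei. Strain terms (7 degrees of freedom, batch as a term) and pairs of clusters (mouse as a block) were tested with edgeR 4.0.16 (R 4.3.3, quasi-likelihood, TMM scaling, filterByExpr), with Benjamini-Hochberg adjustment over all genes and a threshold of 0.05. Strain terms were tested in the 9 clusters with at least 3 mice of every strain. Levels by strain are CPM after TMM scaling, levels by cluster and of markers are CPM of the library total, and log2 ratios used a prior count of 2. Alternatives were DESeq2 1.42.0, its size factors, no filter, at least 20 nuclei, no replicate block, thinning to one total, a prior count of 0.5 and leaving out each batch. The fits were tested on simulated data. The members and lists were chosen with earlier results of these data known. All 8 genes are named, each with its highest and lowest strain by ratio, with 19 paralogs and the 3 genes most like it by ratio, of which 1 is not reported here. The deposited table writes C57BL/6NJ and NZO/HlLtJ where the design text writes C57BL/6J and NZO/H1LtJ, so the substrain is not given here. No fit holds a sex term. Mice are separate animals, and a batch is 1 pool that shares loading and sequencing, so batch pairs the mice of different strains. Open-chromatin counts were not used here.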

Additional observations from a re-analysis of the deposited data

Results flagged for a closer look

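Of 231 groups of 4 mice, 14 held a mouse far from the other 3, by the gap to its nearest neighbour over the group's range (Dixon's 95% critical value), and chance flags about 1 in 20 groups. Batch 3, the shallowest, held 9 of the 14. In the log2 ratio of Drd2+ over Drd1+ neurons these were A/J for Fstl5 (-0.92, with the others up to -0.47), C57BL/6 for Ncam2 (-0.52, with the others down to -0.76) and WSB/EiJ for Sorl1 (-1.04, with the others up to -0.53), all in batch 3, and A/J for Dscaml1 in batch 4 (0.95, with the others down to 0.69). In Drd1+ neurons the A/J mouse of batch 3 was low for Fstl5 (185 CPM), Ncam2 (1328 CPM) and Tmtc1 (266 CPM), and the 129S1/SvImJ mouse of batch 3 for Rasgef1b (419.9 CPM). In Drd2+ neurons, Onecut2 was low in the C57BL/6 mouse of batch 1 (54.5 CPM) and high in the CAST/EiJ mouse of batch 3 (44.5 CPM), and Tmtc1 was low in the CAST/EiJ mouse of batch 4 (239.8 CPM). Elsewhere, Fstl5 was high in the second Drd1+ cluster of the CAST/EiJ mouse of batch 1 (123 CPM, with the others down to 38.7), Ncam2 in oligodendrocytes of the PWK/PhJ mouse of batch 4 (771 CPM) and Rasgef1b in oligodendrocytes of the A/J mouse of batch 3 (43.7 CPM).

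The strain effect differed between Drd1+ and Drd2+ neurons by the edgeR interaction test for the paralogs Fst (F = 3.88), Fstl4 (4.58), Tmtc2 (3.62) and Sorcs1 (4.78). Between astrocytes and oligodendrocytes it differed for Prkd1 (F = 26.8), Ncam2 (14.5), Tmtc1 (9.18), Sorl1 (14.7) and Dscaml1 (4.50). The Dscaml1 call was lost without batch 3 (edgeR adjusted p = 0.313), and Tmtc1 reached the filter on low counts in 13 of 32 astrocyte libraries. The effect also differed for the paralogs Tmtc2 (50.6, edgeR adjusted p = 6.54e-31), Fstl1 (23.6, edgeR adjusted p = 5.3e-18), Sorcs3 (6.89, edgeR adjusted p = 1.83e-05) and Tmtc4 (3.65, edgeR adjusted p = 0.0152). For Fstl5 the statistic was 3.13 and for Rasgef1b 3.82. Fstl5 reached the filter on low counts in 4 astrocyte libraries of 3 strains and in 0 oligodendrocyte libraries. Rasgef1b reached it in 10 astrocyte libraries of 5 strains, so no difference is read from either gene. The Fstl5 call was lost in 5 of 9 alternatives, DESeq2, thinning to one total and without batch 1, 2 or 3, with an edgeR adjusted p of up to 0.255. That of Rasgef1b was lost in DESeq2 and without batch 1, 2 or 4, with an edgeR adjusted p of up to 0.123.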

How the results depend on the processing

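Of the counts of genes, 178 of the values under alternatives stayed within 1.5 times the reported count and 42 did not. Of values of single genes, 836 were unchanged, 42 lost the call and 11 gained it. The unchanged ones include the log2 ratios of the end strains, which have no threshold and stayed within 1 SD. Direction was compared only for the mean differences between clusters, and none changed it. The causes were not tested. Counts of listed genes include genes for which the text gives no test because few libraries reached the filter on low counts, and nothing is read from these. Without the replicate block, called genes numbered 2530 for Drd2+ against Drd1+ neurons (4076 with it), 69 for their interaction with strain (631 with it) with 0 paralogs in place of 4, and 71 in endothelium (161 with it) with 0 listed genes in place of 1. With no expression filter the counts were 468 in Nxph1+ interneurons (61 reported), 527 in endothelium, with 4 listed genes, and 221 in Polydendrocyte/Oligodendrocyte (26 reported), with 1 listed gene, and 3 listed genes in macrophages in place of 1. DESeq2 gave 109 in Nxph1+ interneurons, 75 and 1 listed gene in Polydendrocyte/Oligodendrocyte, 3 listed genes in endothelium and 2 paralogs in the interaction, and DESeq2 size factors gave 2 listed genes in endothelium. Thinning to one total gave 2901 genes between the second and the main Drd1+ cluster, in place of 4928. Leaving out 1 batch at a time gave 1138 to 1675 genes in astrocytes (1767 reported) with 2 to 5 listed genes, 628 to 780 in the second Drd1+ cluster (958 reported), 24 to 46 in Nxph1+ interneurons, 63 to 138 with 0 to 1 listed genes in endothelium, and 6 to 58 in Polydendrocyte/Oligodendrocyte. It gave 1 to 3 listed genes in macrophages, 1 to 3 paralogs in the interaction of Drd1+ and Drd2+ neurons, and 717 to 1077 genes in that of astrocytes and oligodendrocytes (1103 reported). At least 20 nuclei per library was not run for endothelium and Polydendrocyte/Oligodendrocyte, which then had too few mice. Low counts limit Onecut2 outside Drd1+ neurons, Drd2+ neurons and oligodendrocytes.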

Other observations

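Slc1a3, the glial glutamate transporter, was at 4288 ± 744 CPM (SD, n = 4) in macrophages of 129S1/SvImJ and at 179 to 426 CPM in those of the other 7 strains. This gene was singled out after its values were seen and was not tested.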
